A study of Mus musculus with 3 samples.

Results

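The endothelin system was read in imLECs, an immortalized line of lymphatic endothelial cells from mouse skin, in 3 cultures. It was taken as 5 genes: Edn1 (the ligand endothelin-1), the receptor genes Ednra and Ednrb, and the converting enzyme genes Ece1 and Ece2. Its members were all probe sets that the platform annotation gives to these genes, a probe set being a group of array probes that reads one stretch of a transcript. That rule found 9 of the 45101 probe sets of the array, and they belong to 4 of 18194 named genes. Edn1 had 1 probe set, Ednrb 3, Ece1 3 and Ece2 2. Ednra was paired with 0 probe sets in the annotation used here and was not analysed here, so all statements on receptors concern Ednrb. The genes were chosen from the known pathway with earlier intensities and passage differences of the same arrays in view, so both are given as a description, with no test.

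Endothelins are short vasoactive peptides cut from longer precursors. Proprotein convertases such as furin first release an inactive intermediate, big endothelin, which the membrane metalloproteases ECE-1 and ECE-2 then cut to the active peptide. The ETA receptor (Ednra) on smooth muscle drives contraction, whereas the ETB receptor (Ednrb) on endothelium is known for clearing endothelin-1 and for releasing nitric oxide through the endothelial synthase Nos3. Endothelium is the main source of endothelin-1 in vessels, and Ednrb is also known for its part in melanocyte and enteric neuron precursors.

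All cultures were of the same kind, cells of H-2Kb-tsA58 ImmortoMice isolated by fluorescence-activated sorting, and they differed by label only in passage number (13, 14 and 18, 1 culture each). The transgene is a temperature-sensitive SV40 large T antigen driven by the interferon-inducible H-2Kb promoter, so each culture is an immortalized line, and no primary cells or untreated controls were among the samples. Cells were expanded at 33 °C on collagen and fibronectin with interferon-gamma at 1 unit per ml, and were then kept for 3 days at 37 °C without it so that the T antigen could be lost. The labels say nothing of separate animals, so the spread between cultures can be in part technical. With 1 culture per passage no comparison between passages has a replicate, and precision is limited by having 3 arrays.

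A gene was called detected where its brightest probe set lay above a floor on all 3 arrays. The floor was set at the 95th percentile of the signals of 40 genes known from other tissues only, at 29.8, 37.3 and 33.8 intensity units at passages 13, 14 and 18. By that rule 9828 genes (54%) were detected. Checked against the labelled cell type, 10 of 10 pan-endothelial markers and 7 of 10 lymphatic markers were detected, among them Pdpn and Flt4. Prox1, the transcription factor that defines lymphatic identity, was above the floor on 2 of 3 arrays, and the lymphatic genes Reln and Mmrn1 were below it on all. The passage 18 array stood apart in the signal of a control transcript near its 3' end over that near its 5' end. For Gapdh this ratio was 19.4 there, 8.59 at passage 13 and 7.10 at passage 14. Such a ratio is an indirect reading of RNA integrity, which was not itself measured here. The Actb control differed less, at 1.42 there, 1.18 at passage 13 and 1.20 at passage 14.

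The cells expressed the ligand, and its signal was lowest at passage 18. Edn1, read by a single probe set (1451924_a_at), had an intensity of 1518 at passage 13, 1280 at passage 14 and 682 at passage 18. All 3 values lay far above the floors, and passages 13 and 14 were close together. On the log2 scale the mean was 10.10 ± 0.61 (SD, n = 3). Passage 18 was 2.22-fold lower than passage 13 and 1.88-fold lower than passage 14, while passage 14 was 1.19-fold lower than passage 13. In bulk cultures, fewer cells that express a gene and less RNA per cell cannot be told apart. The suffix of the probe set marks it as one that may read several transcripts of the same gene, and with no other Edn1 probe set there was no second reading to set beside it.

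Edn1 lies at chr13:42301476-42307990 of mouse assembly GRCm38.p6. The genome build behind the array was not given in the sources used here, and no coordinate below belongs to a probe. The start region of Edn1 is shown, from RefSeq and on the plus strand, because Edn1 was among the members that were lowest at passage 18. The Ednrb region is shown with it for the receptor gene that was also lowest there. Capitals mark matches to any of 4 motifs, searched on both strands in 300 bases per promoter (250 before and 50 after the annotated start). The first was AGATAA, the letters bound by GATA factors such as Gata2. The second was TGACTCA, the consensus letters of the AP-1 complex of Fos and Jun proteins. The third was GTGACTAA, the form that the AP-1 element takes in Edn1, which does not overlap the consensus letters in these windows. The last was ACGTG, the core of the elements through which hypoxia-inducible factors act. The motifs were chosen with the Edn1 sequence in view. The lines give the bases upstream of Edn1 (chr13:42301226-42301475), a stretch just after its annotated start (chr13:42301490-42301519), and the bases upstream of Ednrb (chr14:103843702-103843951, minus strand). The Ednrb stretch belongs to the start that the promoter table gives and lies inside the span of the gene (chr14:103814615-103844508), so it is not the outermost start.
Edn1 upstream: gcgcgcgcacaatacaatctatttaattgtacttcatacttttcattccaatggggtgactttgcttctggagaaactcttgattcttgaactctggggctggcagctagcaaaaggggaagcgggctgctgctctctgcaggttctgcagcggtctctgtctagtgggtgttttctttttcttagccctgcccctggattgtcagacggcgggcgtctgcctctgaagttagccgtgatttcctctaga
Edn1 after the start: ctggctgCACGTtgcctgtggGTGACTAAt
Ednrb upstream: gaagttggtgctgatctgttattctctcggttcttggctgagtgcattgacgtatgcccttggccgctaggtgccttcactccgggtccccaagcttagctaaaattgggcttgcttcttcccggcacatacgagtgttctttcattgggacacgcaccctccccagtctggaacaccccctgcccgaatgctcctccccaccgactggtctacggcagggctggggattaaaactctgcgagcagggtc

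No motif match fell in the 250 bases upstream of the annotated start of Edn1. The start that these cells use was not measured, so whether the matches given next lie before or after it is not known. After the annotated start of Edn1, AGATAA was matched from base 9 on the minus strand, ACGTG from base 22 on the minus strand and GTGACTAA from base 36 on the plus strand, the last 2 being the capitals in the printed stretch. The Ednrb window held none of the 4 motifs on either strand. Among the windows of the other measured members, that of Ece2 held ACGTG from base -92, and 1 of the Ece1 windows held it on both strands, from bases -90 and -89. Over 32851 promoter windows of the same length, 11.2% held AGATAA, 5.2% TGACTCA, 0.63% GTGACTAA and 19.6% ACGTG. A match is a description of letters and not a bound site.

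Ednrb signal lay above the floor in the cultures of passages 13 and 14 but not in that of passage 18. Its brightest probe set (1437347_at) had an intensity of 140.6 at passage 13, 103.6 at passage 14 and 19.5 at passage 18. With the passage 18 value replaced by that array's floor of 33.8, Ednrb was at least 4.16-fold lower at passage 18 than at passage 13 and at least 3.06-fold lower than at passage 14. Another probe set (1423594_a_at) gave the same order, at 87.8, 81.2 and 29.9, with bounds of at least 2.60-fold and 2.40-fold. The third (1426314_at) was below the floor on all arrays, at 16.3, 18.8 and 8.59, so it gives no fold. Of 10024 genes that exceeded the floor in both earlier cultures, 1.96% did not exceed it at passage 18, and Ednrb was among them. Its mean log2 level by the brightest probe set was 6.04 ± 1.53 (SD, n = 3), the widest spread of the 4 genes measured. That mean and SD include the passage 18 signal of 19.5, which lay under the floor.

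The main converting enzyme gene did not share that pattern. The brightest Ece1 probe set (1455741_a_at) had an intensity of 1343 at passage 13, 919 at passage 14 and 1245 at passage 18, a log2 mean of 10.17 ± 0.29 (SD, n = 3). Passage 14 was the lowest culture, 1.46-fold below passage 13, and passage 18 was 1.08-fold below passage 13. A dimmer probe set (1434177_at) read 190.5, 157.3 and 168.7, also lowest at passage 14, with passages 13 and 18 within 1.13-fold. The third Ece1 probe set (1441423_at) was below the floor on all arrays, at 23.9, 20.7 and 25.8. Ece1 lies at chr4:137862237-137965229.

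The probe sets of Ece2, the gene of the related enzyme known from secretory vesicles of neural and endocrine cells, disagreed. The bright one (1423358_at) had an intensity of 668 at passage 13, 557 at passage 14 and 279 at passage 18, whereas the other (1424561_at) was below the floor on all arrays, at 9.35, 8.40 and 8.16. By the bright probe set, passage 18 was 2.39-fold lower than passage 13 and 1.99-fold lower than passage 14, and the log2 mean was 8.88 ± 0.66 (SD, n = 3). RefSeq places Ece2 at chr16:20629851-20645915, inside the span of a read-through gene, Eef1akmt4-ece2, at chr16:20611601-20645915 that begins at the methyltransferase gene Eef1akmt4. Which of these transcripts the bright probe set reads was not determined, so its values are those of the probe set annotated to Ece2.

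**Figure D1:**
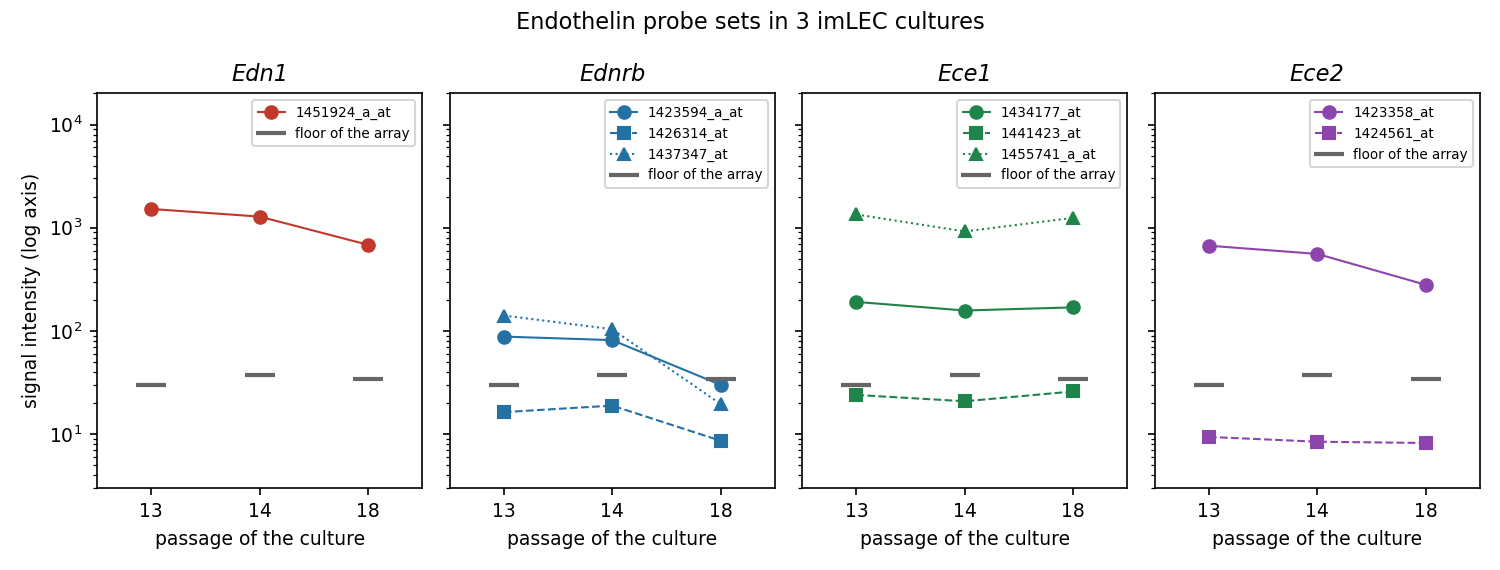
Signal intensity (log axis) of the 9 endothelin probe sets in the cultures of passages 13, 14 and 18; each point is 1 array, lines join the points of 1 probe set, and grey bars are the floor of each array. Edn1, the 2 brighter Ednrb probe sets and the bright Ece2 probe set are lowest at passage 18, the Ednrb ones under the floor there, while the 2 brighter Ece1 probe sets are lowest at passage 14.

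Among detected genes, Edn1 and Ece2 were the members at least 2-fold lower at passage 18 than at passage 13 (2 of the 3 detected members), where 2.29% of the 9828 detected genes were. None (0 of 3) was at least 2-fold higher, against 2.40% of detected genes. The log2 difference was -1.15 for Edn1, -1.26 for Ece2 and -0.11 for Ece1. Ednrb was under the floor at passage 18 and is left out of the counts of members here. By its brightest probe set it was at least 4.16-fold lower there than at passage 13, and at least 3.06-fold lower than at passage 14. Between passages 18 and 14, 0 of 3 detected members differed at least 2-fold, against 12.1% of detected genes. Ece2 lay just inside that limit at -0.99 on the log2 scale, Edn1 was at -0.91, and Ece1 was higher at passage 18, at 0.44. Between passages 14 and 13, again 0 of 3 differed at least 2-fold, against 5.28%, with differences of -0.25 for Edn1, -0.26 for Ece2 and -0.55 for Ece1. These comparisons share arrays, so the differences are not independent of each other. Edn1 and Ece2 had the order passage 13 over 14 over 18, an order held by 12.4% of detected genes, and Ednrb had the same order by both of its probe sets that exceeded a floor.

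**Figure D2:**
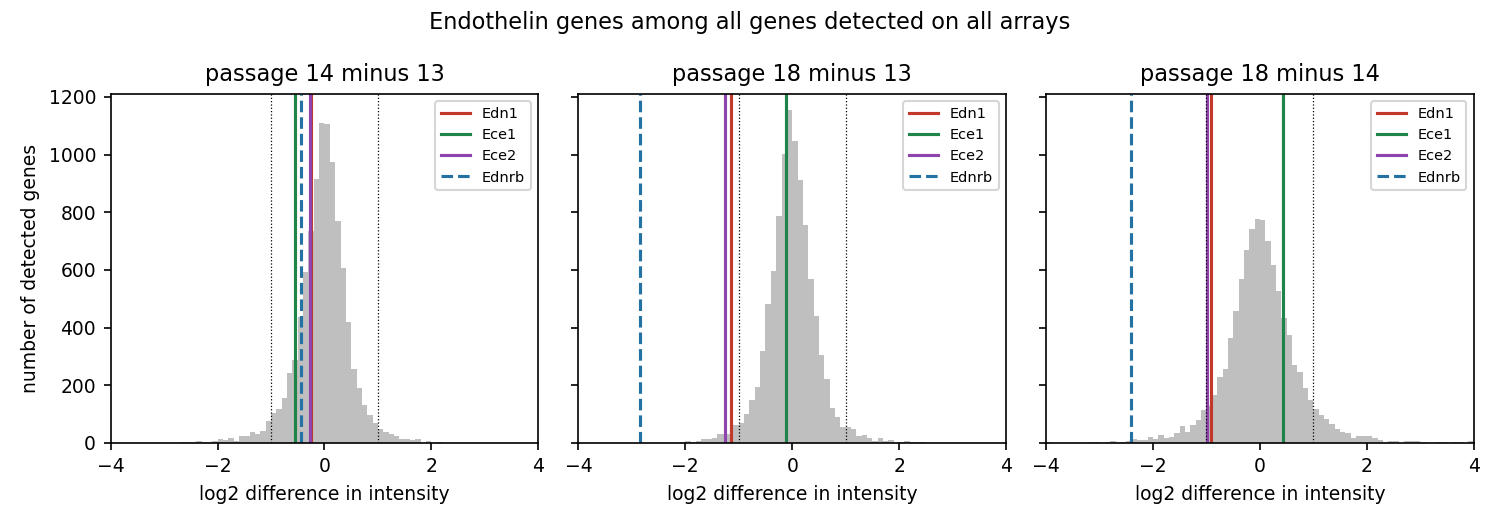
Log2 difference in intensity between 2 cultures for all genes detected on all arrays (grey, number of genes in bins of 0.1; the outermost bins hold values beyond the axis) with the endothelin genes as lines; Ednrb is dashed because its passage 18 value lies under the floor, and dotted lines mark 2-fold. Between passages 18 and 13, Edn1 at -1.15 and Ece2 at -1.26 lie left of the 2-fold line and Ece1 at -0.11 lies near the centre.

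The patterns most like those of the detected members were found by the root mean square distance between log2 values centred on each gene's own mean, over 3 arrays. With so few arrays many genes come close, and the names are a description only. For Edn1 the nearest of 1434 detected genes with a range of at least 1 log2 unit were Plekhg1 (distance 0.01), Zcchc3 (0.04) and Itga4, an integrin chain (0.04). For Ece2 they were Ripk3, a kinase of necroptosis (0.02), Plekhg1 (0.04) and Edn1 itself (0.05). For Ece1, whose range was smaller, they were Crip2, the peptide transporter gene Tap2 and the proton pump subunit Atp6v0a1 among all other detected genes, each at 0.01.

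The other ligands were not detected. Edn2 read 14.4, 12.8 and 13.2 at passages 13, 14 and 18, and the brightest Edn3 probe set read 20.6, 17.8 and 14.0, all below the floors. Of the 9 other ligand and processing genes, 3 were detected, all of them proprotein convertases: Furin, Pcsk6 and Pcsk7. Between passages 18 and 13, 0 of these 3 differed at least 2-fold, against 4.69% of detected genes. Their median log2 difference was -0.12, against -0.01 over all detected genes. Pcsk5, a convertase named after its values were seen, read 80.7, 17.9 and 233.0. Its passage 18 value was 2.89-fold above that of passage 13, and it was not counted as detected because its passage 14 value lay under the floor. Furin read 149.2, 184.2 and 196.0, so it was lowest at passage 13, where Edn1 was highest. Pcsk7 read 194.5, 177.2 and 152.0, in the same order as Edn1. Pcsk6 read 156.5, 174.4 and 144.4, and was also lowest at passage 18. Kel and Ecel1, genes of related metalloproteases, were below the floor on all arrays. Mme, also on that list, read 37.8, 19.8 and 39.0 and was under the floor at passage 14 alone.

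Downstream of the receptors, 17 of 20 measured signalling genes were detected, among them the G protein alpha subunits Gnaq, Gna11, Gna12, Gna13, Gnai2 and Gnai3 and the phospholipases Plcb1, Plcb2, Plcb3 and Plcb4. None (0 of 17) differed at least 2-fold between passages 18 and 13, against 4.69% of detected genes, and the median log2 difference was 0.04. Between passages 14 and 13 it was again 0 of 17, against 5.28%, and between passages 18 and 14 it was 1 of 17, against 12.1%. Counts this small in 17 genes do not set the list apart from all genes. That gene was Itpr2, an intracellular calcium release channel, at 235.0, 149.6 and 355.8, which was 2.38-fold higher at passage 18 than at 14. Nos3, named here after its values were seen because it acts downstream of Ednrb, read 65.8 at passage 13, 159.6 at passage 14 and 23.1 at passage 18. Like Ednrb it exceeded the floor in all but the passage 18 culture, but its highest value was at passage 14, where that of Ednrb was at passage 13.

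All 11 measured transcription factors known to act on Edn1 were detected. Between passages 18 and 13, 0 of 11 differed at least 2-fold, against 4.69% of detected genes, with a median log2 difference of 0.08. Gata2, the GATA factor known for endothelial Edn1, read 339.8, 293.5 and 393.3, and Hif1a read 1539, 1102 and 1668. Both were highest at passage 18. Of the 11 factors, 4 were lower at passage 18 than at 13, against 5025 of the 9828 detected genes. The 4 were Smad2 (1.14-fold), Smad3 (1.13-fold), Rela (1.03-fold) and Klf2 (1.02-fold). Between passages 18 and 14, 2 of 11 differed at least 2-fold, against 12.1% of detected genes. Fos, a subunit of AP-1, was 4.26-fold higher at passage 18 than at 14, at 179.4, 68.5 and 291.4. Klf4, a factor of flow responses, read 1012, 533 and 1123 and was 2.11-fold higher at passage 18 than at 14. Transcript levels of these factors say nothing of their activity, which was not measured.

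Marker genes of several cell types also differed at passage 18, some lower and some higher. The 3' to 5' ratio of the control transcripts differed as well, at 19.4 for Gapdh there. The part of either in these results was not tested. Over all 9828 detected genes, 5025 were lower at passage 18 than at 13 and 2.29% were at least 2-fold lower, with a median log2 difference of -0.01. All 10 pan-endothelial markers were lower at passage 18 than at 13, 3 of them at least 2-fold, with a median log2 difference of -0.63. The summed intensity of the pan-endothelial list was 19278, 18454 and 13054 at passages 13, 14 and 18. Of the 7 detected lymphatic markers, 5 were lower at passage 18 than at 13, 3 of them at least 2-fold, with a median log2 difference of -0.92. Lyve1, a hyaluronan receptor, was 8.44-fold lower, the transcription factor gene Sox18 2.55-fold lower and Flt4 2.22-fold lower. Nrp2 was 1.89-fold and Pdpn 1.24-fold lower, while Foxc2 was 1.22-fold and Nr2f2 1.01-fold higher. The summed intensity of the lymphatic list was 12014, 10403 and 8068. The smooth muscle and pericyte markers had 3 of 8 detected: Acta2 read 1467, 308 and 5289, Tagln 4535, 619 and 1756, and Pdgfrb 77.9, 66.0 and 206.3. Acta2 and Pdgfrb were thus highest at passage 18 and Tagln at passage 13. The summed intensity of that list was 6195, 1095 and 7375, and Myh11, which defines mature smooth muscle, did not exceed the floor on any array. Among the 8 fibroblast markers 4 were detected, with a median log2 difference of 0.72 between passages 18 and 13. The collagen genes Col1a1 and Col3a1 were 4.67-fold and 3.90-fold higher at passage 18, while Fbln1 was 1.86-fold and Thy1 1.45-fold lower. The summed intensity of the fibroblast list, to which Thy1 gave 2496, 1414 and 1723, was 3345, 1906 and 4256. Pdgfra and Lum did not exceed the floor on any array.

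Ednrb is also a gene of melanocytes and of glial precursors, so markers of both were read, and their part in the Ednrb values was not tested. Of 8 melanocyte markers, Mitf alone was detected, at 210.5, 190.1 and 243.6. Tyr, Tyrp1, Dct, Mlana, Sox10 and Kit did not exceed the floor on any array, and Pmel exceeded it on 1. The summed intensity of the melanocyte list, mostly that of Mitf, was 303, 298 and 335 at passages 13, 14 and 18. Of the 4 measured Schwann cell markers 0 were detected on all arrays, but Sox10 alone stayed under the floor throughout. Ngfr exceeded it on 2 arrays, at 29.9 at passage 13 and 44.7 at passage 18, and S100b and Erbb3 exceeded it at passage 18 alone, at 50.1 and 43.7. These 3 genes were highest at passage 18, and the summed intensity of the Schwann cell list was 108, 105 and 158.

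**Figure D3:**
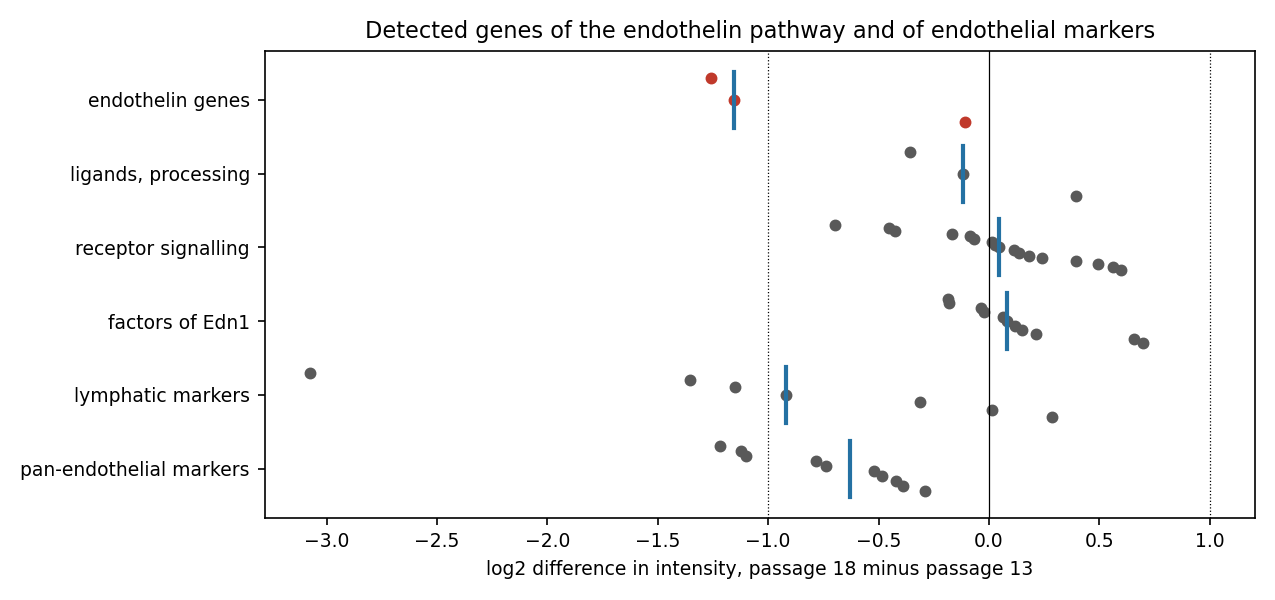
Log2 difference in intensity between the passage 18 and passage 13 cultures for each gene detected on all arrays, by list; each point is 1 gene, blue bars are list medians, and dotted lines mark 2-fold. Edn1 and Ece2 lie beyond 2-fold, as do 4.69% of all detected genes. The detected convertases, receptor signalling genes and Edn1 factors lie within it. All 10 pan-endothelial markers lie below 0, as do 5025 of the 9828 detected genes.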

How the data were processed

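Transcript levels were measured on 1-colour Affymetrix mouse arrays in 3 cultures that form 1 group. Per the labels' protocols, RNA was amplified by linear isothermal amplification and biotin-labelled as cDNA. The authors deposited linear signal intensity values, 1 for each probe set on each array. MAS5 is named in the submitters' processing notes, with no role. Nothing further on how the values were made was given in the sources used here. Array medians were 25.7, 26.0 and 26.3 at passages 13, 14 and 18, so the values were not normalized again.

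Of 45101 probe sets, 34958 had 1 gene, 932 had several genes and were left unnamed, and symbols were updated through RefSeq GRCm38.p6 for 34754. Log2 intensities were computed in Python 3.11.15 with pandas 2.3.3. The probe set with the greatest mean over the arrays stood for each gene, a choice that favours bright probe sets. No detection calls were used. The floor came from a list of 44 tissue-restricted genes, 40 of them measured, of which Prm1 and Camk2a were themselves above it on all arrays. Genes past a fold of 2 were counted, with no test. Error is the SD over 3 cultures.

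The members and lists were chosen with earlier results of these data known. Named are every member, pathway genes detected on all arrays that differed at least 2-fold between any 2 passages, detected smooth muscle, melanocyte and Schwann cell markers, and the 3 nearest patterns per detected member. Other genes are examples within a list. Alternatives were the floor percentile (90 and 99), quantile normalization, adding 16 before the log, the median over the probe sets of each gene, omission of probe sets ending in _a_at, _s_at or _x_at, and leaving out each culture.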

Additional observations from a re-analysis of the deposited data

How the results depend on the processing

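The number of detected members at least 2-fold different between passages 18 and 13, which leaves out Ednrb, was 2. It was 1 with the median over all probe sets of a gene and 1 without probe sets ending in _a_at, _s_at or _x_at. The first setting averages the bright Ece2 probe set with the dim one, and the second removes the only Edn1 probe set. The other counts of members and of pathway genes stayed within 1.5 times. Ednrb stayed below the floor at passage 18 by the value that represents the gene in every setting that kept that array. Its other probe set, at 29.9, was above the 90th percentile floor of 27.1, so 5 rather than 4 member probe sets exceeded the floor throughout. Leaving out 1 culture gave 3 to 4 detected members, 4 being without passage 18, and 4 to 6 probe sets. Leaving out 1 culture gave 31 to 33 other pathway genes detected. The mean log2 level of Ece1 was 7.42 rather than 10.17 with either probe set rule, and that of Ece2 was 5.99 rather than 8.88 with the median. No setting reversed a direction of a member past 2-fold. No paired analysis was possible because there was 1 group.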
